A study of Mus musculus with 6 samples.

Results

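The NADPH oxidase of phagocytes was followed here through 6 of the 32285 genes in the feature lists: Cybb, Cyba, Ncf1, Ncf4, Rac2 and Hvcn1, each matched by its symbol in single-cell counts of CD45+ cells sorted from the midbrain. The enzyme, NOX2, passes electrons from NADPH across a membrane to oxygen and so makes superoxide, which phagocytes use to kill microbes and which, in the brain, has been studied as a source of oxidative damage to neurons. Its parts lie apart in resting cells: Cybb (gp91phox, the catalytic subunit) and Cyba (p22phox, its partner) sit in the membrane, while Ncf1 (p47phox, the organiser), Ncf4 (p40phox, a binding partner in the cytosolic complex) and the haematopoietic GTPase Rac2 move to it on activation. Hvcn1 is a voltage-gated proton channel that carries protons out and balances the charge moved by the enzyme.

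All mice were males of Line 61, in which the Thy1 promoter, used to drive transgenes in neurons, directs human α-Syn, and were 12 to 15 weeks old when both striata were injected. There was 1 library for each of 4 conditions: PBS, Monomer (monomeric human α-Syn), PFF + VH (sonicated human α-Syn preformed fibrils, then the DMSO vehicle) and PFF + AZD1480 (fibrils, then the JAK1/2 inhibitor AZD1480 at 25 mg/kg by daily gavage for 4 weeks from week 2). Cells were taken 6 weeks after injection, from 3 to 5 ventral midbrains pooled per sample. The PFF + VH cells carried 4 hashtags and the PFF + AZD1480 cells 5, antibody barcodes that split a library. The methods describe separately processed biological replicates, as many in each PFF group as there are hashtags, and also replicates of PBS and Monomer, whose libraries carry no hashtags here. No label says which animals a hashtag stands for, so that p-values over hashtags measure the spread between hashtags of 1 library each, and the treatment and the library cannot be told apart.

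The libraries held 13813 to 34828 barcodes and 99658216 to 116440449 UMIs (counted transcript molecules), and 13021 to 34436 cells each were kept. The PFF + VH library stood apart in depth, with a median of 2306 UMIs per kept cell against 6616 to 7028 in the others. Pairs of libraries shared 45 to 151 barcodes. Cells were classed by marker genes that held no member: 11141 to 31841 microglia per library, 150 to 240 macrophages (border macrophages and monocytes together), 19 to 102 neutrophils, 104 to 227 T and NK cells and 26 to 49 B cells. Levels below are CPM, the UMIs of a gene scaled to all UMIs summed over the cells of a class, and their intervals are exact 95% Poisson intervals that cover counting error only. For a level of 0, the limit given in the text is 3 UMIs over the total. Ptprc, which encodes CD45, was detected in every class of every library (580.3 to 2056 CPM), and the summed microglial markers reached 18301 to 21400 CPM in the microglia, and 14.0% to 21.0% of their microglial level in the macrophages.

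In mm10, Cybb lies on the minus strand at chrX:9435252-9487771 and Cyba on the minus strand at chr8:122424776-122432930. Ncf1 lies on the minus strand at chr5:134220053-134229625 and Hvcn1 on the plus strand at chr5:122206804-122242297. Ncf4 (plus strand, chr15:78244801-78262580) and Rac2 (minus strand, chr15:78559167-78572783) are on the same chromosome. Cyba, Ncf1 and Hvcn1 each overlap 1 gene on the other strand (Gm20388, Gtf2ird2 and Tctn1), and whether the counting used strand is not given in the sources used here. RefSeq promoter windows (GRCm38.p6) were at hand for 3 of the 6 members and were searched on both strands for GAGGAA, a core that PU.1 (Spi1) can bind, and for TTCNNNGAA, the GAS element that STAT proteins bind. The sequences of Cybb and Ncf1 are shown because these were the member with the largest estimated fall and the member that rose in microglia with the JAK1/2 inhibitor (below). The Cybb fall had overlapping hashtags and its call was lost in 9 of 20 alternatives. Each sequence runs from 250 bases before the RefSeq start to 30 after it, 5′ to 3′ on the gene's strand, with the matched motif in capitals. The Cybb window is chrX:9469295-9469574, whose RefSeq start lies inside the longer gene span given above, and the Ncf1 window is chr5:134229596-134229875.
Cybb: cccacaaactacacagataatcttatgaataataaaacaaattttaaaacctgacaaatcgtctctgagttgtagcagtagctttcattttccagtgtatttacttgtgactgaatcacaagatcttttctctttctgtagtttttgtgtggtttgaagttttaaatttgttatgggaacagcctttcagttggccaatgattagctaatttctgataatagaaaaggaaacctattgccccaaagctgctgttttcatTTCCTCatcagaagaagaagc
Ncf1: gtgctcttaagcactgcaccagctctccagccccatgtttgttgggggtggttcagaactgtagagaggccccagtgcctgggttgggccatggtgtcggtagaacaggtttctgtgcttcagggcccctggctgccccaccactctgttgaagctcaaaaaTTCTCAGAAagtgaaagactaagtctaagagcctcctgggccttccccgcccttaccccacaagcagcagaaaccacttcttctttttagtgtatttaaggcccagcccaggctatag
The Cybb window held GAGGAA on the opposite strand, so that it reads TTCCTC here, with its first base at +10, and GAGGAA was present in 26.0% of 32851 promoters over the same 280 bases. The Ncf1 window held the GAS motif at -88, present in 7.83% of promoters. Neither motif matched in the Cyba window. Ncf4, Rac2 and Hvcn1 had no entry.

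The members divided by cell class, and no class was highest for all of them. Neutrophils had the highest mean level of 5 members, and B cells that of Hvcn1. For Cybb the neutrophil mean was the highest through the PFF + AZD1480 library alone, and in the other 3 libraries macrophages had more Cybb than neutrophils. Microglia carried Cyba and Ncf1 in every library but little Cybb, the catalytic subunit, which was abundant in macrophages and neutrophils.

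Taking the libraries in the order PBS, Monomer, PFF + VH, PFF + AZD1480, Cybb in microglia was 13.1, 18.8, 69.2 and 49.9 CPM. In macrophages it was 709, 759, 631 and 628 CPM in that order, and in neutrophils 470.4, 601, 531 and 1266. The macrophage and neutrophil levels lay above every microglial level in each library. By mean ± SD over the 4 libraries, the order was neutrophils (717 ± 370 CPM), macrophages (682 ± 63.8), B cells (223 ± 81.0), microglia (37.8 ± 26.5) and T and NK cells (11.4 ± 7.22). Neutrophils and macrophages did not differ beyond their spread (log2 fold change 0.25, edgeR's quasi-likelihood test with the library as a block, adjusted p = 0.62), whereas each other pair of classes next to each other in the Cybb order passed that test.

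**Figure D1:**
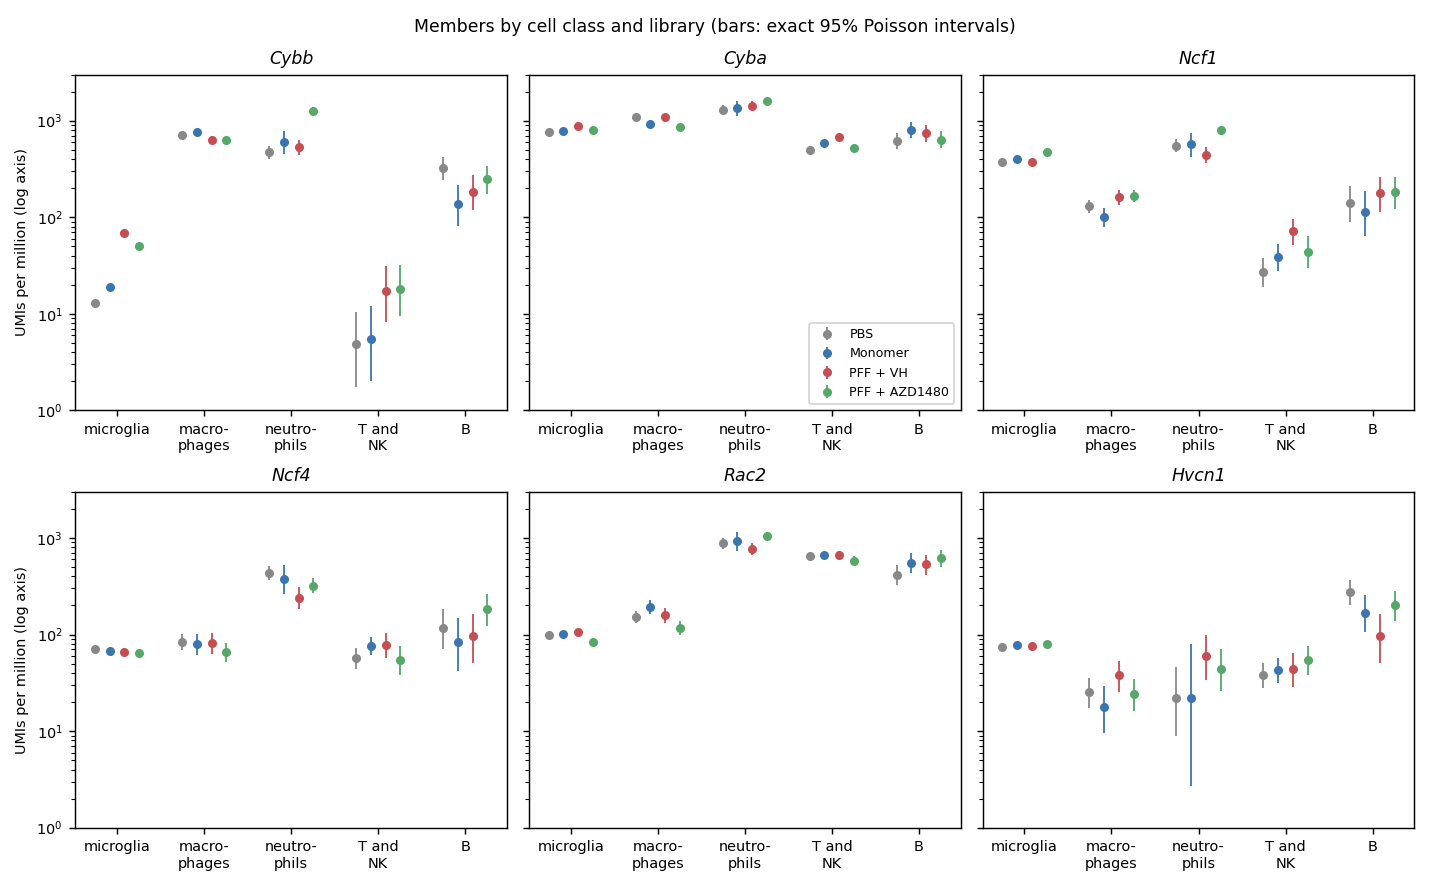
Level of each member (CPM, log axis) in 5 cell classes, with 1 point per library and exact 95% Poisson intervals as bars. Cybb in microglia spans 13.1 to 69.2 CPM over the libraries, whereas Ncf4 and Hvcn1 in microglia lie within 64.1 to 70.0 and 73.8 to 80.6 CPM.

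Against microglia, 2 of 6 members were higher and 2 lower in macrophages, where 21.9% and 18.1% of the 9399 genes tested were called in those directions. Cybb was higher (log2 fold change 4.43, SE 0.42, adjusted p = 1.6e-08) and so was Rac2 (0.69, SE 0.20, adjusted p = 0.0071). Rac2 was called neither with sums per hashtag (adjusted p = 0.089) nor without the Monomer library (adjusted p = 0.083). Ncf1 (-1.54, SE 0.22) and Hvcn1 (-1.55, SE 0.22) were lower, with Ncf1 at 101 to 165 CPM in macrophages and at 370 to 474 in microglia. At the share that the microglial markers had in the macrophages, microglial RNA would carry 53.0 to 87.5 CPM of Ncf1 and 10.4 to 15.8 of Hvcn1, which stood at 17.6 to 37.6 in macrophages. The other genes read as microglial RNA (C1q genes and Csf1r among them, which macrophages also express) stood at 57.9% to 71.5% of their microglial level there, and their part in these values was not tested. Cyba (0.32, adjusted p = 0.15) and Ncf4 (0.23, adjusted p = 0.39) did not pass. The median of the 6 members was 0.28, beside 0.01 over all genes.

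Within the macrophages, cells with more border macrophage markers were set beside cells with more monocyte markers as a description. Monocytes had Cybb at 1357, 1198, 867 and 1121 CPM in PBS, Monomer, PFF + VH and PFF + AZD1480, and border macrophages had 536, 635, 539 and 548. Ncf4 was 213, 232, 166 and 224 CPM in monocytes and 49.99, 34.4, 48.7 and 40.5 in border macrophages. Rac2 was 337, 311, 364 and 212 CPM in monocytes against 103, 157, 78.3 and 101. Cyba was 1488, 1181, 1587 and 885 CPM in monocytes and 977, 859, 907 and 855 in border macrophages. In all 4 libraries these 4 members were higher in the monocytes, of which there were 31, 26, 44 and 18, or 13.7%, 17.3%, 18.7% and 7.50% of the macrophages.

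Neutrophils had 5 members higher than microglia and 0 lower at an adjusted p of 0.05, where 19.5% of genes were called higher and 30.5% lower. The changes were 4.68 for Cybb (SE 0.43), 3.58 for Rac2 (SE 0.21), 2.70 for Ncf4 (SE 0.21), 1.16 for Cyba (SE 0.18) and 0.87 for Ncf1 (SE 0.22), and the median over all genes was -0.43. Hvcn1 was 22.2, 22.3, 60.4 and 44.3 CPM in neutrophils (-0.63, adjusted p = 0.077, unadjusted p = 0.042), and was called lower without the PFF + VH library (-0.82, adjusted p = 0.027). All 6 members had an unadjusted p below 0.05 here, but the share of all genes below it was not counted. That share is no smaller than the share called at the adjusted threshold. The other genes read as microglial RNA, none of them a class marker, stood in the neutrophil sums at 17.3%, 3.5%, 47.4% and 17.3% of their microglial level in the same order. The microglial markers themselves were at 2883, 1057, 8399 and 3376 CPM there. The part of both in the neutrophil values was not tested. Of the macrophage markers, the border macrophage list stood at 1.75%, 1.25%, 0.667% and 0.873% of its level in macrophages, a share that would carry 4.21 to 12.4 CPM of Cybb. The monocyte list was higher in neutrophils than in macrophages (3111 to 6822 CPM against 898.2 to 1892), with Chil3, Ifitm6 and Ly6c2 among the highest, while Ccr2, the chemokine receptor of monocytes, was at 0 to 11.1 CPM against 217 to 294, and both lists together reached 30.3%, 76.3%, 32.5% and 44.2% of their level in macrophages. In PBS, Monomer, PFF + VH and PFF + AZD1480, a Cybb UMI was found in 10.8%, 31.6%, 27.6% and 38.6% of neutrophils and in 40.1%, 34.2%, 37.9% and 40.1% of macrophages after each cell was thinned to 1000 UMIs. Unthinned, 25.8%, 42.1%, 33.3% and 64.5% of neutrophils held one, at median depths of 3697, 3407, 1671 and 5667 UMIs, against 79.7%, 76.7%, 68.1% and 67.1% of macrophages, at 5387, 5253, 2832 and 5116. Cybb was thus found in a minority of the neutrophils of 3 libraries, while Rac2 was found unthinned in 60.8% to 92.4% of neutrophils.

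T and NK cells had Rac2 higher than microglia (2.68, SE 0.20) and 4 members lower, beside 31.1% of genes called higher and 30.4% lower. Rac2 was 654, 668, 660.5 and 582 CPM in T and NK cells and 83.4 to 105 in microglia, so the classes lay far apart in every library. Ncf1 (-3.25, SE 0.24), Cybb (-1.81, SE 0.52), Hvcn1 (-0.83, SE 0.21) and Cyba (-0.55, SE 0.17) were lower. The Cyba call was lost without the PBS library (adjusted p = 0.055) or without the PFF + AZD1480 library (adjusted p = 0.057). Cybb in T and NK cells was 4.81, 5.53, 17.02 and 18.2 CPM, and the microglial RNA there stood at 4.3%, 4.4%, 17.02% and 13.4% of its microglial level. Without the cells of the highest doublet scores, Cybb there was 1.93 CPM in Monomer and 9.31 in PFF + AZD1480, and the change against microglia was -2.42 (adjusted p = 0.00070).

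B cells had 4 members higher than microglia and 1 lower, beside 18.9% of genes higher and 22.1% lower. Hvcn1 was 276, 168, 95.9 and 202 CPM in B cells (1.25, SE 0.23), the highest level of this channel among the classes in each library. Cybb was 325, 137, 184 and 246 CPM (2.70, SE 0.44), Rac2 416 to 617 CPM (2.41, SE 0.21) and Ncf4 83.8 to 183 CPM (0.82, SE 0.26), and Ncf1 was lower (-1.45, SE 0.25). With sums per hashtag, Rac2 was the only member called higher. The Ncf4 call was lost in 3 of the 11 alternatives, these sums included. Rac2 did not differ between B cells and T and NK cells beyond the spread (-0.27, adjusted p = 0.44), and the other members apart from Cyba were higher in B cells than in T and NK cells, where 7.39% of genes were called higher.

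**Figure D2:**
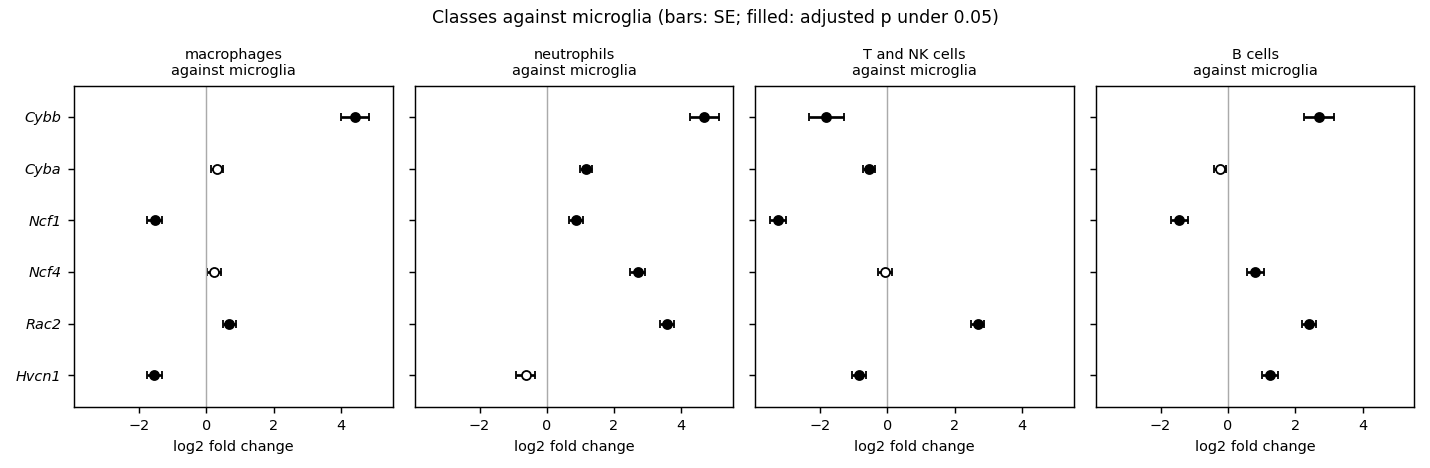
Log2 fold change of each member in 4 classes against microglia (points, with SE as bars), with 4 libraries per class, and filled points at an adjusted p under 0.05. In neutrophils 5 points are filled to the right of 0, whereas in macrophages Cybb and Rac2 are to the right and Ncf1 and Hvcn1 to the left.

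The rest of the pathway was read from lists of other oxidase parts (given with the AZD1480 comparison), activators, receptors that trigger the oxidase, genes of the defence against oxidants and regulators of Cybb transcription. Receptors that trigger the oxidase, for antibody, complement and microbial products among others, were lower than in microglia in T and NK cells (8 of 12 tested, none higher, beside 30.4% of all genes lower) and in B cells (9 of 12, none higher, beside 22.1% lower), with Fcgr1 at -4.20 and -3.96. In macrophages 6 of these 12 receptors were higher and 2 lower (21.9% and 18.1% of all genes), among them Cd36 (6.89, SE 0.37), a scavenger receptor. Defence genes were higher for 9 and lower for 2 of 16 tested in macrophages, with Txn1 at 1.49, and higher for 7 and lower for 5 in neutrophils, with Txn1 (thioredoxin) at 4.62 and Prdx5 (a peroxiredoxin) at 3.68 (19.5% of all genes higher and 30.5% lower in neutrophils). Of the activators, 4 of 16 were higher and 3 lower in macrophages, and 6 higher and 3 lower in neutrophils, where Arhgdib (2.95) and Syk (2.04) rose. The shares of activators called in macrophages were close to those of all genes, 21.9% higher and 18.1% lower. Of the 7 regulators, Spi1, which encodes PU.1, was lower than in microglia in T and NK cells (-3.22) and B cells (-1.96), and Irf8 was lower in neutrophils (-1.73).

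Between single libraries, which have no replicate, a member was read as different past 1.5-fold, and only at a mean over the libraries of at least 50 CPM. In microglia the 5 members above that mean stayed within 0.79 to 1.28 in all pairs compared, beside 2.40% of 3452 genes past 1.5-fold between PFF + VH and Monomer. Cybb, whose mean was under 50 CPM, was 3.67 times as high in PFF + VH as in Monomer (interval 3.48 to 3.88) and 2.65 times in PFF + AZD1480 (2.50 to 2.81), whereas Monomer was 1.44 times PBS (1.33 to 1.55). Macrophage markers in the microglial sums moved along with it, at 28.8, 32.0, 76.6 and 47.6 CPM, with all 20 markers detected in each library. Those levels are 0.262% to 0.786% of the level in macrophages, and at these shares macrophage RNA would carry 1.86, 2.68, 4.96 and 2.46 CPM of Cybb. The class rule, which allowed microglia fewer than 3 markers of any other list, holds these shares down. They can therefore understate macrophage RNA, whose part in the Cybb levels was not tested. Among microglia without a single UMI of a macrophage marker, Cybb was 9.10, 10.48, 48.9 and 34.5 CPM, and PFF + VH was 4.66 times Monomer. In these cells too, both PFF libraries lay above both others. Whether a cell shows such a UMI also depends on depth, a mean of 3043 UMIs per microglial cell in PFF + VH and 6430 to 6904 in the others.

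Each cell was also thinned to 1000 UMIs, so that cells of different depth could be compared by the share of them with a Cybb UMI. The share among microglia was 0.949%, 1.31%, 4.85% and 3.32% in PBS, Monomer, PFF + VH and PFF + AZD1480 (3.09%, 3.93%, 9.40% and 9.63% unthinned, at median depths of 7049, 6657, 2282 and 6512 UMIs). Among T and NK cells, which should have little of the gene, it was 0, 0.556%, 0.578% and 2.88% thinned and 1.76%, 1.65%, 3.31% and 7.69% unthinned, at median depths of 5263, 6022, 2838 and 6190 UMIs. The thinned 2.88% was 3 of 104 cells (exact binomial 95% interval 0.599% to 8.20%) and the 0 was 0 of 223 cells (interval up to 1.64%). The microglial share lay inside the interval of the T and NK cells in PBS, Monomer (interval 0.0141% to 3.06%) and PFF + AZD1480, and above it in PFF + VH (0.0146% to 3.18%).

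Among macrophages, Ncf1 was 130, 101, 161 and 165 CPM, 1.59 times as high in PFF + VH as in Monomer (interval 1.19 to 2.13) and 1.64 times in PFF + AZD1480 (1.26 to 2.15). These were its only ratios past 1.5-fold in macrophages, where 4.71% and 5.03% of 3482 genes were higher past that ratio. At the share of the microglial markers in macrophages, microglial RNA would carry 57.4, 77.5 and 87.5 CPM of Ncf1 in Monomer, PFF + VH and PFF + AZD1480. The part of that RNA in these ratios was not tested. Rac2 in macrophages was 152, 193, 158 and 116 CPM, and PFF + AZD1480 was 0.60 times Monomer (0.48 to 0.76), beside 3.79% of genes lower. The share of monocytes, which held more Rac2, also differed between these libraries (17.3% and 7.50%), and within kinds the Rac2 ratio was 0.64 (0.48 to 0.86) in border macrophages and 0.68 (0.43 to 1.06) in monocytes. In border macrophages, Monomer was also above the other libraries, at 1.53 times PBS (1.14 to 2.03), and PFF + VH was 0.50 times Monomer (0.34 to 0.72). The Ncf1 ratios to Monomer were 1.96 and 1.92 in border macrophages, and 0.93 (0.55 to 1.59) and 1.22 (0.72 to 2.08) in monocytes. Cybb in macrophages stayed within 0.83 to 1.07 in all 4 pairs. In neutrophils, Cybb was 2.38 times as high in PFF + AZD1480 as in PFF + VH (1.96 to 2.91) and Ncf1 1.81 times (1.45 to 2.27), beside 19.2% of 2851 genes higher. Microglial RNA in these sums stood at 47.4% of its microglial level in PFF + VH and 17.3% in PFF + AZD1480, and the neutrophil markers at 151939 and 265082 CPM, and their part in these ratios was not tested. The single hashtags of those neutrophils held 3 to 44 cells, with Cybb at 143, 0, 910 and 623 CPM in PFF + VH and 2133, 395, 2678, 1091 and 1566 in PFF + AZD1480, so the hashtags of the 2 libraries overlapped. Ncf1 in the same hashtags was 444, 0, 325 and 249 CPM in PFF + VH and 904, 461, 670, 884 and 772 in PFF + AZD1480, and did not overlap, as in 8.14% of the 2851 genes, although the 0 came from 3406 UMIs, which allow up to 881 CPM. Against Monomer, neutrophil Cybb was 2.11 times as high in PFF + AZD1480 (1.59 to 2.84, beside 24.6% of genes higher) and Ncf4 was 0.64 times in PFF + VH (0.41 to 1.003, beside 29.5% lower). In B cells, of which there were 26 to 49 per library, 9 of 24 ratios were past 1.5-fold, 4 of them with an interval that left out 1. Cybb was 0.42 times in Monomer what it was in PBS (0.23 to 0.73, beside 19.8% of genes lower) and 1.79 times in PFF + AZD1480 what it was in Monomer (1.001 to 3.33, beside 17.3% higher). Ncf4 was 2.18 times in that second pair (1.06 to 4.84), and Hvcn1 was 2.10 times as high in PFF + AZD1480 as in PFF + VH (1.07 to 4.36, beside 23.8% of genes higher). The intervals of the other 5 took in 1, as for Ncf1 (1.55) and Hvcn1 (0.57) between PFF + VH and Monomer, beside 40.3% of genes past 1.5-fold. In T and NK cells, 0 of 12 ratios were past 1.5-fold.

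The effect of AZD1480 on microglia of PFF-injected mice was compared over 4 PFF + VH and 5 PFF + AZD1480 hashtags, using cells with a single hashtag. Of the 6 members, 1 was higher and 3 were lower with AZD1480, where 11.5% and 13.9% of the 13536 genes tested were called in those directions, 25.4% in all. The member median was -0.15, beside 0.00 for all genes. Ncf1 rose, Cyba and Rac2 fell, each with hashtags that did not overlap, which held for 23.1% of all genes. These sums take in all microglial states, and ratios within states are given below.

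Ncf1 was 355, 383, 356 and 380.1 CPM in the PFF + VH hashtags and 455, 479, 480.2, 481 and 517 in the PFF + AZD1480 hashtags. Every PFF + AZD1480 hashtag lay above every PFF + VH hashtag. The means were 368 ± 15.1 (SD, n = 4) and 482 ± 22.4 (n = 5), a log2 fold change of 0.34 (SE 0.05, edgeR adjusted p = 0.00053). Cyba was 918, 928, 907 and 925 CPM with VH and 781, 865, 812, 798 and 781 with AZD1480. The highest PFF + AZD1480 hashtag was below the lowest PFF + VH hashtag, with means of 920 ± 9.20 and 808 ± 34.9, and the change was -0.24 (SE 0.05, edgeR adjusted p = 0.0035). Rac2 was 109, 108, 104 and 110.1 CPM with VH and 81.7, 93.3, 77.3, 82.4 and 76.5 with AZD1480, again apart. It fell by 0.44 on the log2 scale (SE 0.06, edgeR adjusted p = 0.00023). These 3 calls held under each of the 20 alternatives tried.

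Cybb was 64.3, 49.95, 95.5 and 75.2 CPM in the PFF + VH hashtags and 63.8, 53.4, 24.9, 45.0 and 35.4 in the PFF + AZD1480 hashtags. The groups overlapped, since 2 PFF + AZD1480 hashtags lay above the lowest PFF + VH hashtag. The means were 71.2 ± 19.2 and 44.5 ± 15.2, and the change of -0.71 (SE 0.23) was at an edgeR adjusted p of 0.040. It did not pass with DESeq2 (adjusted p = 0.0699), among microglia without a macrophage marker UMI (-0.62, adjusted p = 0.125) or in 6 of the 9 fits that left out 1 hashtag, and not with the hashtag number as a block (-0.64, adjusted p = 0.136). Without PFF + VH hashtag 1, 3 or 4 the adjusted p was 0.054, 0.13 or 0.080, and without PFF + AZD1480 hashtag 3 or 4 it was 0.063 or 0.0696. Without PFF + AZD1480 hashtag 5 it was 0.0817. The macrophage markers stood at 60.4 to 86.2 CPM in the microglia of the PFF + VH hashtags and at 32.5 to 54.96 in those of PFF + AZD1480.

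Ncf4 and Hvcn1 had overlapping hashtags and no call. Ncf4 was 61.8 to 70.7 CPM with VH and 60.8 to 67.8 with AZD1480 (-0.07, SE 0.05, edgeR adjusted p = 0.33). Hvcn1 was 68.3 to 79.7 CPM and 75.7 to 84.6 CPM (0.03, SE 0.05, edgeR adjusted p = 0.74).

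**Figure D3:**
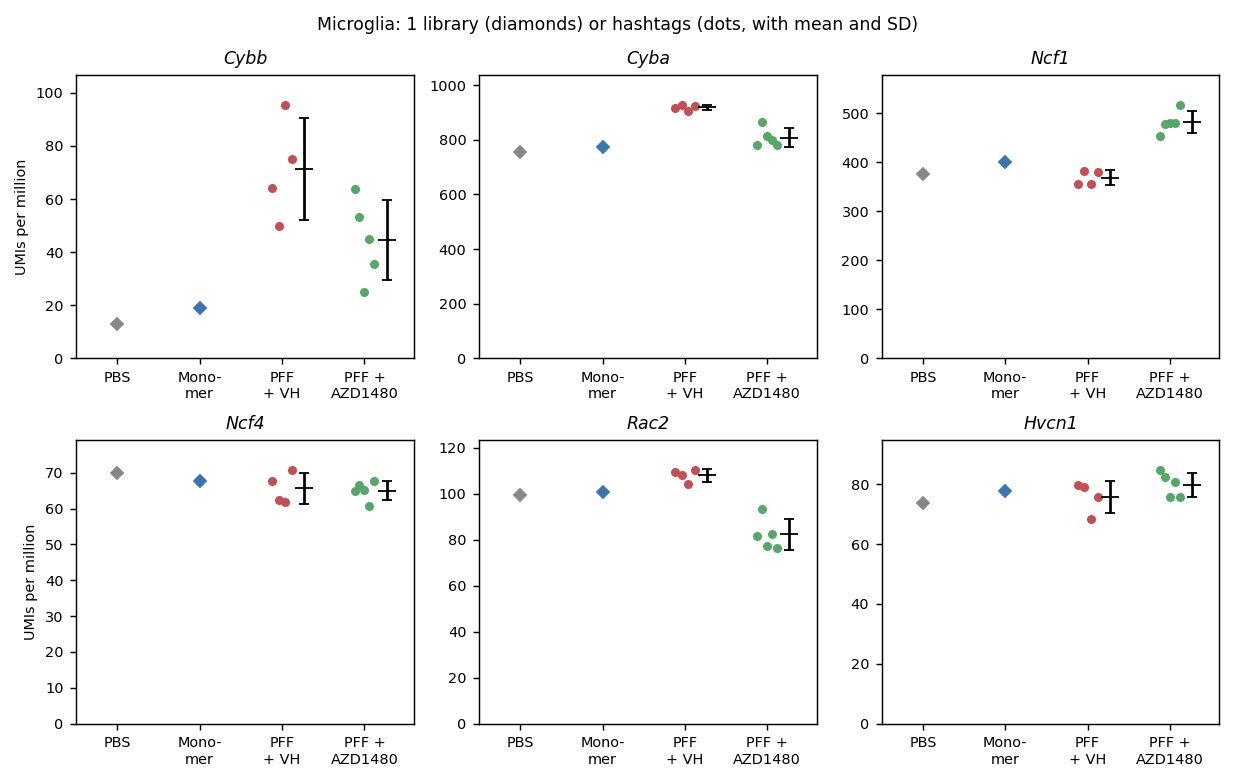
Level of each member in microglia (CPM, from 0). Diamonds are whole libraries (PBS, Monomer), dots are hashtags of PFF + VH (4) and PFF + AZD1480 (5), and bars are the mean and SD, with Ncf1 dots at 355 to 383 against 455 to 517 CPM and Cybb dots overlapping.

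Depth differed between these groups, at a mean of 3219 to 3992 UMIs per microglial cell in the PFF + VH hashtags and 5883 to 6920 in those of PFF + AZD1480. In cells thinned to 1000 UMIs, the share with a Ncf1 UMI was 27.9% ± 0.874 with VH and 32.8% ± 1.64 with AZD1480 (exact permutation test over hashtags, two-sided, p = 0.016, adjusted over the 6 members 0.032). The share with a Cyba UMI was 58.0% and 52.3% (same adjusted p of 0.032 by the exact test) and that with a Rac2 UMI 10.4% and 8.16% (adjusted p of 0.032, exact test). Hvcn1 differed by 1.01 percentage points (7.10% and 8.12%, exact test, adjusted p = 0.048) and, at 2000 UMIs, by 0.22 (adjusted p = 0.79). Cybb shares were 5.07% ± 1.65 and 3.11% ± 0.671 (exact test, adjusted p = 0.057) and, at 2000 UMIs, 7.88% and 4.63% (adjusted p = 0.024).

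Cells that carried no single hashtag stayed out of this comparison. In PFF + VH, 12272 microglia had no hashtag, with Cybb at 51.3 CPM, Cyba at 756, Ncf1 at 380 and Rac2 at 98.2. In PFF + AZD1480 there were 733 such microglia, with Cybb at 35.8 CPM, Cyba at 294, Ncf1 at 532 and Rac2 at 44.5. The order of the 2 libraries was the same as in the tagged cells for these 4 members, and the reverse for Hvcn1, at 73.1 CPM in PFF + VH and 62.0 in PFF + AZD1480 (intervals 69.6 to 76.9 and 49.0 to 77.4). The Cyba level, however, differed with tagging. Without a hashtag it lay in both libraries below every tagged PFF + AZD1480 hashtag (781 to 865 CPM). A single hashtag was given to 52.0% of cells in PFF + VH and 81.0% in PFF + AZD1480, and the part of this in the comparison was not tested.

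In macrophages, 0 of 5 members tested were called between 4 hashtags of each PFF library, beside 7 of 3139 genes (0.223%). By edgeR, 1 of the 5 had an unadjusted p below 0.05, beside 13.3% of genes, and 0 were called by DESeq2. That member was Cyba, at 1026, 1029, 1368.5 and 1027 CPM with VH and 945, 729, 868.4 and 834 with AZD1480, with hashtags that did not overlap, as in 6.94% of genes (-0.42, SE 0.16, edgeR adjusted p = 0.27). Cybb was 620, 681, 712 and 732 CPM against 643, 548, 714 and 553, overlapping (-0.17, adjusted p = 0.69). Ncf1 (0.40, adjusted p = 0.51), Rac2 (-0.36, adjusted p = 0.62) and Ncf4 (-0.01) did not pass either, and Hvcn1 was too low to be tested. The difference between the macrophage and microglial effects was tested by an exact permutation of hashtags on log2 levels, two-sided, and the lowest p was 0.14, for Cybb (0.86 adjusted over the 6 members). With 4 hashtags per group, no single member could pass alone after that adjustment, so this test does not show that the effects are alike.

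In T and NK cells, 0 of the 2 members tested were called over 4 and 3 hashtags, beside 3.32% of 2322 genes. Cyba had an unadjusted p of 0.047 (-0.51, SE 0.24, edgeR adjusted p = 0.36), and DESeq2 called 0. Rac2 was 585 to 622.4 CPM with VH and 625.1 to 660.1 with AZD1480, groups next to each other without overlap, as in 301 of the 2322 genes (0.04, SE 0.20, adjusted p = 0.97). Neutrophils and B cells were too few per hashtag for this test.

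**Figure D4:**
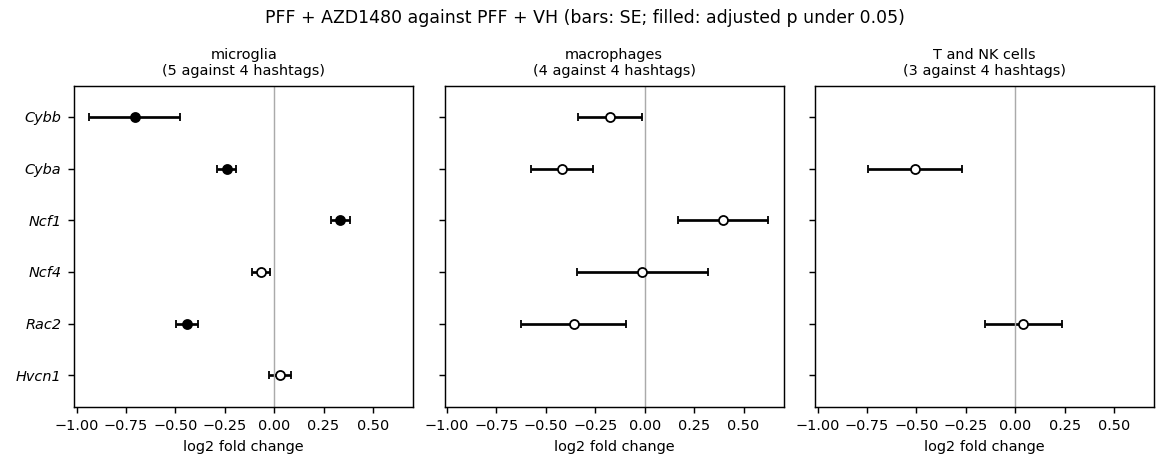
Log2 fold change of each tested member between the hashtags of PFF + AZD1480 and PFF + VH (points, with SE as bars) in microglia, macrophages and T and NK cells, filled at an adjusted p under 0.05. In microglia Ncf1 is at 0.34 and Cyba, Rac2 and Cybb are at -0.24, -0.44 and -0.71, whereas no point is filled in the other 2 classes.

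Among the pathway lists in microglia, the other oxidase parts had 1 gene higher and 1 lower of 6 tested. Cybc1, a chaperone that gp91phox and p22phox need, was 47.9 ± 3.0 CPM with VH and 56.2 ± 3.1 with AZD1480 (0.18, SE 0.06, edgeR adjusted p = 0.041). Duoxa1, a maturation factor of the related dual oxidases, was at 3.34 and 1.45 CPM (-1.25). The counts of the lists stand beside 11.5% of all genes higher and 13.9% lower. Of 16 activators, 5 were higher and 1 was lower, with Syk at 0.26 and Plcg2 at 0.22, both in signalling below immune receptors, and Arhgdib, which holds Rac in the cytosol, at -0.21. Of 10 receptors, 1 was higher and 3 were lower: Cd36 (-1.19, from 5.63 to 2.49 CPM), Fcer1g (-0.34) and Fcgr1 (-0.30), the last 2 parts of Fc receptors. Over all libraries Cd36 was at 312 CPM in macrophages and 3.07 in microglia, and the part of macrophage RNA in its fall was not tested. Of 17 defence genes, 2 were higher and 7 lower. Nfe2l2, the transcription factor of the antioxidant response, was at 0.62 and Gclc, which makes glutathione, at 0.43, whereas Gpx1, a glutathione peroxidase, was at -0.32. In macrophages edgeR called 0 of the 45 genes tested from these lists, with 12 at an unadjusted p below 0.05 (beside 13.3% of all genes tested) and 1 called by DESeq2. In T and NK cells edgeR called 2 of the 29 tested, Fcer1g (-1.01) and Irf8 (-1.62), beside 3.32% of all genes. DESeq2 called 0 of the 5 regulators there, so that the Irf8 call was lost.

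Microglia were then divided, after thinning to 1000 UMIs, by markers of the disease-associated, interferon-responsive and cycling states, none of which is a member. The disease-associated state is known from neurodegeneration models, and the interferon-responsive state is marked by genes that JAK and STAT signalling induces. Cybb was higher in all 3 states than in microglia in no state, and Cyba was higher in the disease-associated state and Rac2 in the cycling state. The cycling call of Cybb was lost in 2 alternatives (below).

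Cybb in disease-associated microglia was 94.5, 148, 197 and 206 CPM in PBS, Monomer, PFF + VH and PFF + AZD1480, and 11.97, 16.8, 46.2 and 32.7 in no state. The lowest disease-associated value was above the highest no-state value. The change was 2.65 (SE 0.16, edgeR with the library as a block, adjusted p = 1.7e-21). Macrophage markers stood at 78.7 to 139 CPM in these cells and at 29.1 to 75.2 in no state, and at the share this makes of macrophages, Cybb would be at 5.08 to 10.6 CPM. The class rule for microglia holds this share down as well. Cyba was 1142, 1165, 1144 and 1332 CPM in disease-associated microglia and 728, 745, 867 and 763 in no state (0.73, SE 0.11, edgeR adjusted p = 7.1e-07). Thus 2 members were higher and 0 lower, beside 15.4% of 5815 genes called higher and 9.82% lower. The member median was 0.31 beside 0.00. By edgeR 3 members had an unadjusted p below 0.05, and the share of all genes below it was not counted.

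In the interferon-responsive state Cybb was 38.0, 303, 199 and 308 CPM, from 39 to 357 cells per library. The PBS value rested on 3 UMIs (interval 7.83 to 111). The change was 2.79 (SE 0.25, edgeR adjusted p = 3.7e-14), and no other member passed (1 higher and 0 lower, beside 4.09% and 0.894% of genes). Macrophage markers stood at 177 to 210.1 CPM in these cells.

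In cycling microglia Rac2 was 267, 143, 224 and 132 CPM, against 84.1 to 107 in no state (1.08, SE 0.20, edgeR adjusted p = 3.1e-05). Cybb was 88.9, 0, 86.8 and 75.5 CPM (1.26, SE 0.34, edgeR adjusted p = 0.0048). The 0 came from 21 cells and 21000 UMIs, where 3 UMIs are 143 CPM and the Poisson interval ends at 176. The Cybb call was lost with 1 more marker per cell (adjusted p = 0.076) and without the PFF + VH library (adjusted p = 0.086), which held 380 of the cycling cells. Of the members 2 were higher and 0 lower at an adjusted p of 0.05, beside 11.2% and 7.39% of genes. By edgeR 3 had an unadjusted p below 0.05, and here too the share of all genes below it was not counted.

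**Figure D5:**
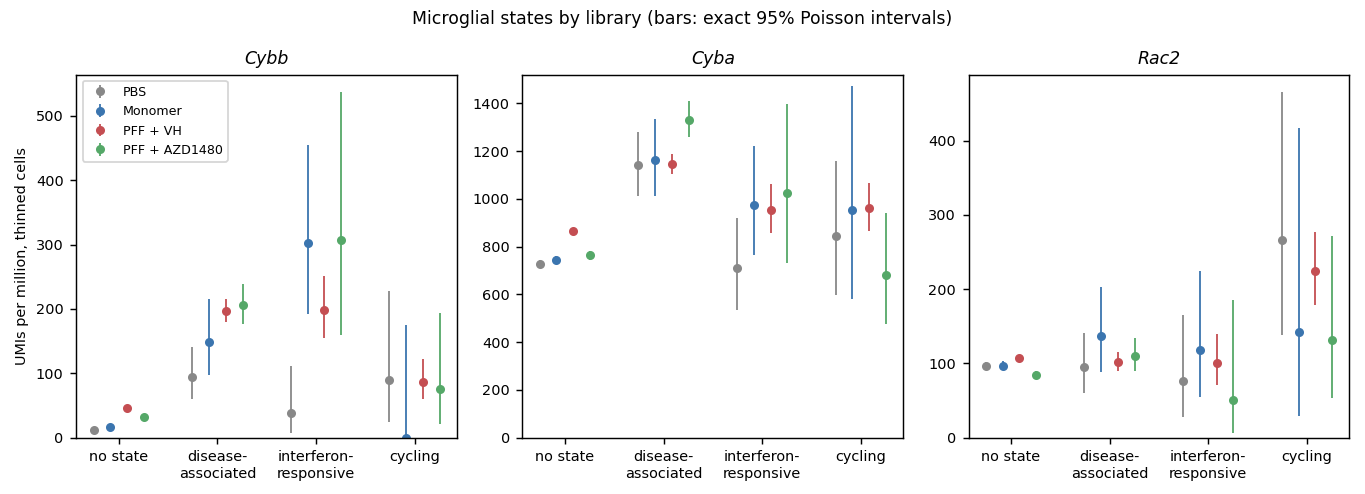
Level of Cybb, Cyba and Rac2 (CPM of thinned cells) in 4 groups of microglia, with 1 point per library and exact 95% Poisson intervals as bars. Cybb in the disease-associated state is 94.5 to 206 CPM, above 11.97 to 46.2 CPM in no state, and wide intervals mark the small interferon-responsive and cycling groups.

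The library ratios of Cybb were also taken within states. In microglia in no state, PFF + VH was 2.75 times Monomer (interval 2.37 to 3.20), and in disease-associated microglia 1.33 times (0.90 to 2.04). Between PFF + AZD1480 and PFF + VH the ratio was 0.71 (0.62 to 0.80) in no state and 1.04 (0.88 to 1.24) in disease-associated microglia. For Cyba that ratio was 0.88 (0.86 to 0.90) in no state but 1.16 (1.09 to 1.25) in disease-associated microglia, the other direction. For Rac2 it was 0.78 (0.72 to 0.85) and 1.09 (0.85 to 1.38), and for Ncf1 1.25 (1.21 to 1.30) and 1.17 (1.03 to 1.33). By hashtag, Cybb in disease-associated microglia was 198, 135, 291 and 229 CPM with VH and 231, 169, 130, 254 and 213 with AZD1480, overlapping. In no state it was 46.6, 35.7, 60.5 and 42.8 against 44.6, 41.1, 18.5, 20.1 and 27.1, where 3 of the 5 PFF + AZD1480 hashtags lay below all of PFF + VH, and the fit on these cells gave -0.64 (edgeR adjusted p = 0.035). Disease-associated cells numbered 254, 182, 2454 and 879 in the 4 libraries, or 2.06%, 1.43%, 9.14% and 8.18% of the thinned microglia.

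In the same states the defence genes had 10 of 14 higher and 0 lower in disease-associated microglia (5 called by DESeq2), with the peroxiredoxin Prdx1 at 0.98, Txn1 at 0.79 and its reductase Txnrd1 at 0.77, beside 15.4% of all genes higher and 9.82% lower. Of 9 receptors 4 were higher and 1 lower there, with Tlr2 at 1.37 and Itgam at -0.51, and of 15 activators 1 was higher and 5 lower. The activators called higher were fewer than that share of all genes, and the receptors called lower were close to it. In the interferon-responsive state the regulators Irf1 (0.87) and Irf8 (0.57) were higher, as was the high-affinity Fc receptor Fcgr1 (1.45). Syk was lower by edgeR (-0.89), the 1 of 15 activators called, beside 0.894% of all genes lower, and DESeq2 called 0 of the 15. In cycling microglia the receptors Fcgr3 (-0.86) and Itgam (-0.85) were lower, whereas 4 of 14 defence genes were higher and 0 lower, with Txn1 at 1.47, beside 11.2% of all genes higher and 7.39% lower.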

How the data were processed

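CD45+ cells were profiled with 10x Single Cell 3′ v3.1 libraries. The deposited values are raw UMI counts per gene and barcode, which the authors made with Cell Ranger (7.0.1 in the matrix headers, mm10 per the labels), with hashtag counts in the same PFF matrices. The study's limits on cells were used: 500 to 15000 counts, 250 to 5000 genes, and mitochondrial counts no higher than 10%. A cell was given a class on at least 3 distinct markers of a list and more UMIs of that list than of any other. Microglia also had fewer than 3 markers of every other list. This rule was set after marker UMIs had been seen. A state needed 2 markers after thinning to 1000 UMIs. Clec7a was among the disease-associated markers, and its own levels are not reported here. Hashtags were called with HTODemux (Seurat 5.3.0), which gave a single hashtag to 52.0% of cells in the VH library and 81.0% in the AZD1480 library. Scrublet's own threshold marked at most 1 cell per library, so doublets were left in, and leaving out the 5% of cells with the highest scores was an alternative. HTODemux, however, gave more than 1 hashtag to 10.7% of cells in the VH library and 12.5% in the AZD1480 library. Such cells stayed in the sums per library and out of those per hashtag.

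Raw counts were summed per hashtag, or per library and class or state, with at least 10 cells per sum, and tested with edgeR 4.0.16 (quasi-likelihood, TMM, filterByExpr, Benjamini-Hochberg over all genes tested, 0.05) in R 4.3.3. Library was a block for classes and states. Exact permutation tests used scipy 1.17.1, and genes of a list were named by the largest change, up to 3 per comparison, with the rest counted. Some genes that this rule names are not reported here. On simulated counts, 84.8% of 2-fold changed genes were recovered for AZD1480 in microglia, 54.5% in macrophages and 49.7% in T and NK cells. Alternatives included DESeq2 1.42.0, RLE scaling, no filter, MULTIseqDemux, stricter classes, thinning to 2000 UMIs, a replicate block and leaving out each hashtag or library. The members and lists were chosen with earlier results of these data known.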

Additional observations from a re-analysis of the deposited data

Results flagged for a closer look

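Over the 30 sets of hashtags in which 1 value could be compared with the rest (6 members, the tested classes and the PFF libraries), 3 values stood apart from the other hashtags of their group by Dixon's criterion, which flags about 1 group in 20 by chance. Cyba in macrophages was highest in PFF + VH hashtag 3, at 1368.5 CPM from 31 cells and 150 UMIs, with the other hashtags at 1026 to 1029. Cybb in T and NK cells of PFF + VH was 15.1 CPM in 1 hashtag, from 2 UMIs, and 0 in the others, whose counts allow up to 24.7 to 37.9 CPM. Hvcn1 in T and NK cells of PFF + VH was 101 CPM in 1 hashtag, with the others at 33.0 to 37.8. The last pair of genes entered no test in T and NK cells, being too low there.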

How the results depend on the processing

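The calls of Ncf1, Cyba and Rac2 with AZD1480 in microglia kept direction and threshold in all 20 alternatives, and lost calls of members are given with their results. Of the AZD1480 changes, Hvcn1 in microglia was -0.017 with MULTIseqDemux, and -0.0038 to 0.065 when 1 hashtag was left out (lowest without PFF + VH hashtag 3). Genes called in microglia numbered 1532 in thinned cells of no state, a setting with fewer cells and fewer UMIs per cell. In macrophages 7 genes were called, against 27 with DESeq2, 98 with no filter, 4 with stricter classes, 3 with the replicate block and 1 to 19 when 1 hashtag was left out. Ncf4 there was 0.014 with no filter, 0.23 with MULTIseqDemux, 0.029 at 1000 counts per cell, 0.026 without doublets, 0.096 with stricter classes, 0.020 with the block and -0.25 to 0.20 when a hashtag was left out. In T and NK cells 77 genes became 50 with DESeq2, 136 with no filter, 30 with MULTIseqDemux, 51 with stricter classes and 38 to 74 when a hashtag was left out (lowest without PFF + AZD1480 hashtag 1).

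Against microglia, sums per hashtag called 2062 genes in macrophages, 2226 in neutrophils, 2861 in T and NK cells and 1500 in B cells, and 1 member higher in macrophages and in B cells. When a library was left out, 3045 (without PFF + AZD1480) to 4836 genes were called in neutrophils. Without the Monomer library 1 member was higher in macrophages. Hvcn1 became the 1 member lower in neutrophils with no filter and without the PFF + VH library. Ncf4 in T and NK cells was -0.20 to 0.023 when a library was left out. Of the states, disease-associated microglia had 878 genes called with DESeq2, 2399 at 2000 UMIs, 928 with 1 more marker and 776 (without PFF + AZD1480) to 1339 when a library was left out, and interferon-responsive microglia 505 at 2000 UMIs, 188 with 1 more marker and 173 (without PFF + VH) to 275 when a library was left out. Cycling microglia had 2082 at 2000 UMIs, 713 with 1 more marker and 604 (without PFF + VH) to 944 when a library was left out. Members lower in cycling cells numbered 1 with no filter, 2 at 2000 UMIs and 1 with 1 more marker, and members higher 1 with 1 more marker and 1 without the PFF + VH library.

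Uncalled changes near 0 crossed it. Ncf1 in disease-associated cells was 0.00024 with DESeq2, 0.0035 with RLE scaling, 0.0066 without doublets and -0.027 to 0.019 when a library was left out. In interferon-responsive cells Rac2 was 0.0071 with DESeq2, 0.012 with RLE scaling, 0.010 without doublets, 0.13 at 2000 UMIs and -0.083 to 0.045 when a library was left out. There Hvcn1 was 0.23 and Ncf1 0.043 at 2000 UMIs, Hvcn1 -0.20 to 0.20 when a library was left out and Ncf1 0.11 with 1 more marker. In cycling cells Cyba was -0.17 with no filter and -0.034 at 2000 UMIs, where Ncf4 was 0.017. The ratio of Cybb between PFF + VH and Monomer microglia was 4.66 without a macrophage marker UMI. Unthinned shares turned to +5.54 percentage points for Cyba, +9.09 for Rac2 and +12.6 for Ncf4 (0.219 at 2000 UMIs), and at 2000 UMIs Cybb was -3.25 and Hvcn1 0.216. The cause was not tested, beyond the unequal depth that thinning removes.

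Hashtag numbers shared by the PFF libraries were tried as a replicate block. Same-numbered sums did not deviate together in microglia (correlations -0.02 to 0.07). The labels do not say what they share beyond the number, and correlations over all genes cannot settle it. With the block, 3061 genes were called in microglia and Cybb was -0.64 (adjusted p = 0.136), whereas the calls of Ncf1, Cyba and Rac2 were kept. Depth per cell, 19 to 102 neutrophils and 26 to 49 B cells per library, and 1 library per condition limit these values. Choices after seeing the data were the rule for the classes and the fits on no-state microglia and on microglia without a macrophage marker UMI.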

Other observations

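Over the 20 sums of library and class, and 3564 genes, genes whose levels followed each member closely were found by Pearson's r, which is given as a description, since sums of 1 class resemble each other in all libraries and sums of 1 library share its depth. For Cybb they were Aldh2 (r = 0.97), Clec12a (0.91) and Mpp1 (0.89). For Cyba they were Ccl6 (0.93), Dstn (0.92) and the peroxidase gene Gpx1 (0.92), and for Ncf1 they included St3gal5 (0.93) and Clec5a (0.88). For Ncf4 they included R3hdm4 (0.93) and Wfdc21 (0.92), for Rac2 Myl12b (0.96), Mctp2 (0.96) and Cnn2 (0.95), and for Hvcn1 Atg16l2 (0.93), Prkce (0.88) and Cd37 (0.87).

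Counted per cell after thinning to 1000 UMIs, microglia had a mean of 1.01, 1.04, 1.13 and 1.09 of the 6 members detected in PBS, Monomer, PFF + VH and PFF + AZD1480, and neutrophils 1.97, 2.37, 2.05 and 2.49. At least 3 members were detected in 4.09% to 5.61% of microglia and in 29.2% to 57.9% of neutrophils. No member was detected in 23.5% to 28.8% of microglia, at a depth where a missing UMI does not show that a gene is off.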
